A study of Mus musculus with 24 samples.

Results

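*Cav1* and *Cav2*, which encode the caveolins of the plasma membrane, and *Ezr*, *Msn* and *Rdx*, which encode ezrin, moesin and radixin, are 5 of the 26995 gene symbols counted in differentiating 3T3-L1 cells. The set was selected on earlier results of the same data, because the labelled reads of *Cav1* and *Ezr* had passed a test of the interaction between day and treatment. *Cav2*, *Msn* and *Rdx* are their close relatives and were added as family members. Each gene is represented by the 3′UTR entry whose mean total count was highest, and the 5 genes own 9 of the 91830 entries in the deposited tables.

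3T3-L1 is a line of mouse embryonic fibroblasts that hormones induce to become adipocytes. Cells received DMSO or 0.5 µM ML-792, an inhibitor of the enzyme that activates SUMO for conjugation to proteins, and were collected on days −2, 1, 3 and 7, with 3 replicates named A, B and C in each of the 8 conditions. Induction medium held dexamethasone, 3-isobutyl-1-methylxanthine and insulin, and maintenance medium with insulin replaced it on day 3. All 24 libraries come from cells labelled with 100 µM 4-thiouridine for 45 min. Reads with at least 1 T to C conversion were counted as RNA made in that window (labelled reads), while all reads measure the RNA present (total reads). None of the 24 libraries lacked 4-thiouridine, so the part of labelled reads that sequencing errors make was not measured. When ML-792 was added to the cells of these libraries is not given in the sources used here, and a separate viability assay added it from day −2.

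Caveolae are flask-shaped pits of the plasma membrane, and mature adipocytes are among the cells richest in them. Caveolin-1 is the membrane protein that builds their coat together with the cavins, and caveolin-2 joins caveolin-1 in mixed oligomers. Ezrin, radixin and moesin form the ERM family, which ties membrane proteins to the actin cortex, the thin actin layer under the plasma membrane, when phosphorylation opens the folded protein.

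*Cav2* and *Cav1* are neighbours on the plus strand of chromosome 6 in mm10, at chr6:17281185-17289130 and chr6:17306335-17341328, with 17204 bases between them. Their reads were counted on the 3′UTR entries NM_016900.4 (chr6:17287048-17289130) and NM_007616.4 (chr6:17339455-17341328). *Ezr* (NM_009510.2) was counted at chr17:6738131-6739302 on the minus strand, *Msn* (NM_010833.2) at chrX:96166635-96168553 and *Rdx* (NM_001104616.1) at chr9:52086480-52088738, both on the plus strand.

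Promoter windows of RefSeq (GRCm38.p6, from 250 bases before to 50 after each start site) were searched on both strands for the AP-1 motif TGANTCA; AP-1 factors are dimers of Fos and Jun proteins. The motif was found in 1 window each of *Cav2* and *Ezr*, at chr6:17281083-17281109 (plus strand) and chr17:6782796-6782822 (minus strand). The windows are shown with the motif in capitals because they are the only 2 among the member genes that hold it:
Cav2: agccaggagaTGACTCAtcgagccggt
Ezr: cgatcgggcgTGACTCAtcttgggacc
The match began 92 bases upstream of the *Cav2* start and 32 bases upstream of the *Ezr* start. Of all 32851 promoter windows, 7.81% held the motif, and no match was found in the windows of *Cav1*, *Msn* or *Rdx*. The GC box GGGCGG, present in 35.7% of all windows, was found in windows of all 5 genes. No member window held the CRE TGACGTCA (1.79% of all windows), the TEAD motif CATTCC (14.7%), the nuclear receptor motif AGGTCA (16.3%) or a CArG box (1.63%). These matches describe the letters of the windows and no factor was measured at them.

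Sequencing gave from 13554718 to 27013352 total reads per library (median 17428698), of which 115709 to 820046 were labelled (median 185851), and values below are counts at the mean effective library size. Summed adipocyte markers were 75.1 to 118 CPM (counts scaled to a common library total) in DMSO on day −2 and 18516 to 21548 on day 7, where ML-792 libraries held 29637 to 32100. Summed pre-adipocyte markers were 21221 to 27129 in DMSO on day −2 and 1361 to 2426 on day 7, against 2673 to 3536 with ML-792. Endothelial, epithelial and macrophage markers never exceeded 1.13, 2.44 and 8.35 CPM. In bulk libraries, fewer cells of a type and less RNA per cell cannot be told apart. The part of this shift in cell state in the values of the 5 genes was not tested.

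**Figure D1:**
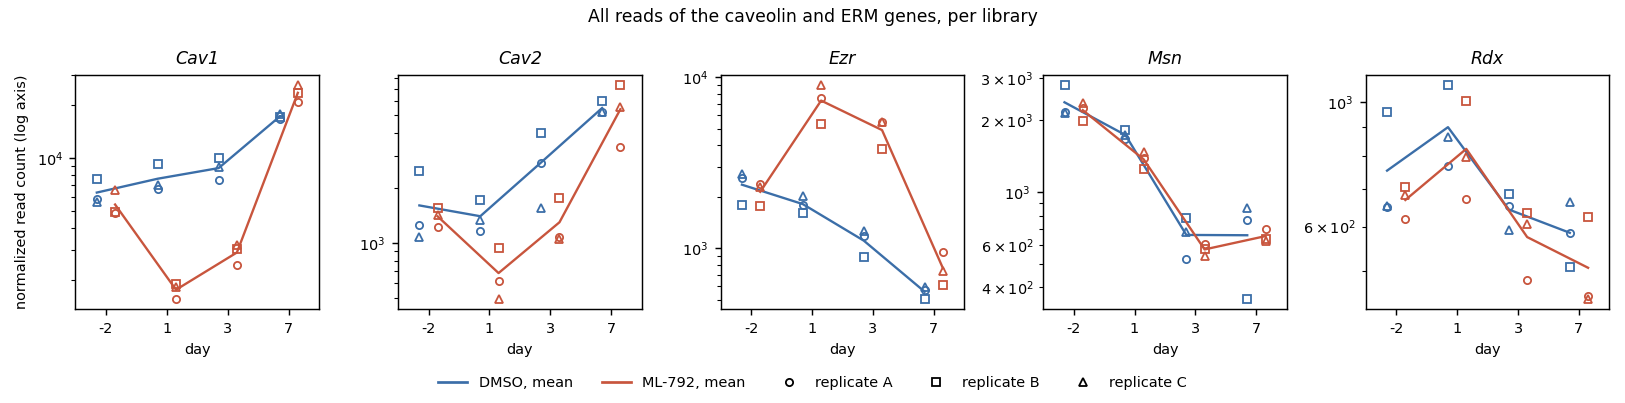
Normalized total read counts (log axis) of the 5 genes in each of the 24 libraries against day, with DMSO and ML-792 in separate colours and lines through the means of 3 libraries. *Cav1* lies below DMSO with ML-792 on days 1 and 3 and above it on day 7, and *Ezr* lies above DMSO at those 3 days.

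*Cav1* RNA was highest late in differentiation in DMSO. Its normalized total counts in replicates A, B and C were 5845, 7566 and 5648 on day −2, then 6657, 9213 and 6999 on day 1. At day 3 they were 7501, 9953 and 8844, and on day 7 they reached 16637, 17284 and 17814. Only the day 7 libraries lay wholly above those of day −2, with a mean of 17245 ± 589 against 6353 ± 1055 (SD, n = 3). The mean was 2.71-fold higher on day 7 (log2 fold change 1.44, standard error 0.19), with log2 fold changes of 0.26 on day 1 and 0.46 on day 3. No contrast of *Cav1* or *Ezr* carries a test here, because both were chosen on the interaction of day and treatment in these libraries, of which the time courses and the treatment contrasts are parts.

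With ML-792, *Cav1* was low on days 1 and 3 and above its starting level on day 7. Its 3 libraries held 4862, 4890 and 6532 counts on day −2 and only 1573, 1896 and 1834 on day 1. They held 2451, 3014 and 3197 on day 3 and 21011, 23696 and 26092 on day 7. Against day −2 of the same treatment, the log2 fold changes were -1.62 on day 1, -0.91 on day 3 and 2.12 on day 7, each with a standard error of 0.17. All 3 libraries of days 1 and 3 lay below, and all of day 7 above, the libraries of day −2.

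Side by side, *Cav1* in ML-792 was 4.31-fold lower than in DMSO on day 1 (1768 ± 171 against 7623 ± 1387) and 3.04-fold lower on day 3 (2887 ± 389 against 8766 ± 1228). At day 7 it was 1.37-fold higher (23600 ± 2542 against 17245 ± 589; SD, n = 3 throughout). The 3 libraries of one treatment lay outside the range of the other at each of these days, whereas they overlapped on day −2, with means of 5428 and 6353. The fitted log2 differences were -2.11, -1.60 and 0.45 with standard errors of 0.18, 0.17 and 0.17. Among all tested entries the day 1 difference stood at percentile 0.885, the day 3 difference at percentile 2.5 and the day 7 difference at percentile 79.5. These ranks are a description only, because *Cav1* was chosen on an interaction that holds these contrasts.

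*Cav2*, which was tested, rose on day 7 in both treatments. In DMSO its normalized total counts in replicates A, B and C were 1258, 2477 and 1083 on day −2 and 1159, 1712 and 1333 on day 1. They were 2741, 4007 and 1549 on day 3 and 5223, 6034 and 5214 on day 7, where alone all 3 libraries exceeded those of day −2. *Cav2* was 3.42-fold higher on day 7 than on day −2 (log2 fold change 1.77, standard error 0.33, adjusted p = 4.2e-04, edgeR's quasi-likelihood test), a call lost without replicate A (adjusted p = 0.02). Calls within a treatment were made at an adjusted p under 0.01, and on day 7 in DMSO 15.9% of all 26563 entries tested were called higher and 16.9% lower than on day −2. The log2 fold changes of -0.20 on day 1 and 0.78 on day 3 did not pass (adjusted p = 0.72 and 0.064, edgeR), although day 3 passed without replicate B (0.0072) and with no filter on low counts (0.0017). At day 3 in DMSO, 14.5% of all entries were called higher and 16.3% lower.

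In ML-792 libraries *Cav2* held 1223, 1552 and 1421 counts on day −2 and 617, 939 and 495 on day 1. It then held 1082, 1758 and 1055 on day 3 and 3347, 7325 and 5557 on day 7. The day 1 libraries lay below those of day −2, but the log2 fold change of -1.03 missed the threshold with edgeR (adjusted p = 0.017). It was called by DESeq2 (0.0051), with no filter on low counts (1.6e-06) and without replicate B (4.4e-04), and the adjusted p was 0.21 without replicate C. In that comparison edgeR called 9.36% of all entries higher and 10.7% lower. Day 3 did not differ beyond its spread (-0.11, adjusted p = 0.79, edgeR). At day 7 *Cav2* rose 3.87-fold over day −2 (log2 fold change 1.95, standard error 0.30, adjusted p = 1.2e-04, edgeR), where 17.4% of entries were called higher and 17.3% lower.

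The test of ML-792 against DMSO was open for *Cav2*, which the choice of genes did not rest on, and calls between treatments were made at an adjusted p under 0.1. At day 3 *Cav2* was 2.13-fold lower with ML-792 (log2 fold change -1.09, standard error 0.34, adjusted p = 0.047, edgeR), although replicate B with ML-792 (1758) exceeded replicate C in DMSO (1549). In that comparison 6.57% of all entries were called higher and 6.46% lower. The *Cav2* call was lost without replicate A (log2 fold change -0.98, adjusted p = 0.36, edgeR) and without replicate C (-1.25, adjusted p = 0.13, edgeR). It stayed without replicate B (-1.01, adjusted p = 0.021, edgeR). Calls over all entries fell from 3462 to 1311 without A and 1611 without C, and rose to 4309 without B. At day 1, where 3.14% of entries were called higher and 3.31% lower, the size was alike (log2 fold change -1.04, standard error 0.35) and all 3 ML-792 libraries lay below DMSO, but the adjusted p of 0.102 just missed the threshold. It ran from 0.0169 without replicate B to 0.468 without replicate A, and DESeq2 called it (0.0487). At day 7 the difference was -0.02 with a standard error of 0.34 (adjusted p = 0.99), where 5.27% of entries were called higher and 4.47% lower. The interaction between day and treatment did not pass for *Cav2* (adjusted p = 0.35, from 0.0717 without replicate B to 0.842 without replicate A), while 9.65% of all entries did. With the replicate letter as a block in the fit, *Cav2* passed on day 1 (adjusted p = 0.0017, edgeR) and in the interaction (0.015, edgeR). The block also raised the calls over all entries, from 1714 to 3509 on day 1 and from 2563 to 5484 in the interaction.

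**Figure D2:**
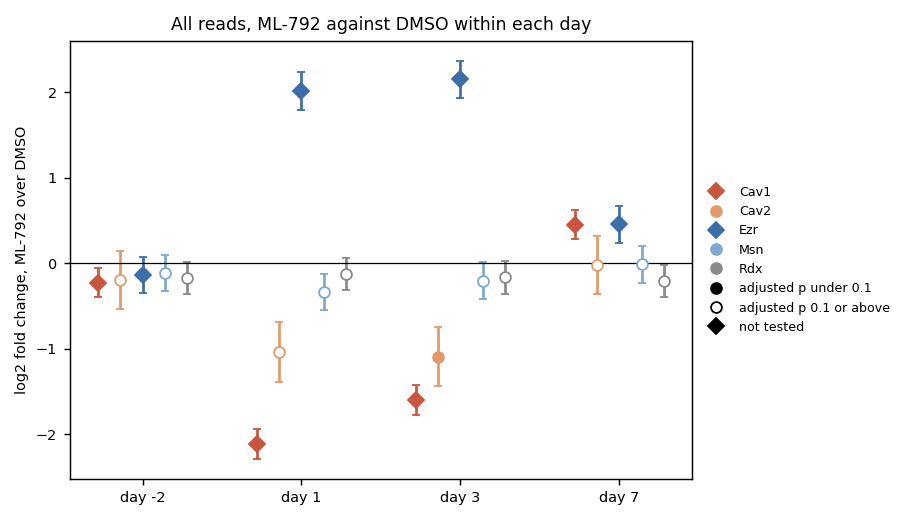
Log2 fold change of total reads in ML-792 over DMSO (vertical axis) at each day for the 5 genes, with bars for the standard error of the fit, diamonds for the untested values of *Cav1* and *Ezr*, and filled circles for an adjusted p under 0.1. *Ezr* stands near 2 on days 1 and 3, *Cav1* at -2.11 and -1.60, and *Msn* and *Rdx* stay between -0.34 and -0.01.

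*Ezr* RNA had a lower mean on each later day of differentiation in DMSO. Its normalized total counts in replicates A, B and C were 2566, 1782 and 2715 on day −2 and 1800, 1612 and 2024 on day 1. They were 1175, 889 and 1258 on day 3 and 572, 507 and 590 on day 7, and both later days lay wholly below day −2. The log2 fold changes against day −2 were -0.38 on day 1, -1.09 on day 3 and -2.08 on day 7, with standard errors of 0.19, 0.19 and 0.20. At day 7 the mean was 4.23-fold lower.

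With ML-792, *Ezr* was above its starting level on days 1 and 3 and below it on day 7. Its libraries held 2367, 1763 and 2286 counts on day −2 and 7578, 5366 and 8997 on day 1. They held 5456, 3828 and 5458 on day 3 and 946, 608 and 736 on day 7. Every library of days 1 and 3 lay above, and every library of day 7 below, the day −2 libraries of the same treatment. Against day −2 in ML-792, *Ezr* was 3.42-fold higher on day 1 (log2 fold change 1.77) and 2.30-fold higher on day 3 (1.20). At day 7 its log2 fold change was -1.49, and the standard errors were 0.23, 0.22 and 0.23.

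Against DMSO of the same day, *Ezr* with ML-792 was 4.04-fold higher on day 1 (7314 ± 1830 against 1812 ± 206) and 4.44-fold higher on day 3 (4914 ± 940 against 1108 ± 194). At day 7 it was 1.37-fold higher (763 ± 171 against 556 ± 43.9; SD, n = 3 throughout), and at all 3 days no ML-792 library overlapped DMSO. The gap on day 7 was narrow, from 590 in the highest DMSO library to 608 in the lowest ML-792 library. At day −2 the libraries overlapped, with means of 2139 and 2354. The fitted log2 differences were 2.01, 2.15 and 0.46 with standard errors of 0.22, 0.22 and 0.21. Those of days 1 and 3 stood at percentiles 97.8 and 97.2 of all tested entries, a description only, because *Ezr* was chosen in the same way as *Cav1*.

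*Msn*, the relative of *Ezr* that encodes moesin, fell in both treatments. In DMSO its total counts were 2180, 2809 and 2158 on day −2, 1665, 1816 and 1734 on day 1, 527, 779 and 685 on day 3, and 767, 359 and 859 on day 7. With ML-792 they were 2259, 1991 and 2374 on day −2, 1392, 1250 and 1481 on day 1, 610, 580 and 541 on day 3, and 702, 637 and 629 on day 7. In DMSO *Msn* fell by 1.84 on day 3 (adjusted p = 4.1e-05, edgeR) and by 1.85 on day 7 (adjusted p = 3.5e-05, edgeR), each with a standard error of 0.27. The DMSO value of -0.45 on day 1 did not pass (adjusted p = 0.23, edgeR). None of *Cav2*, *Msn* and *Rdx* was called on day 1 in DMSO, none had an unadjusted p under 0.05 there and none passed with DESeq2, while edgeR called 5.94% of all entries higher and 7.81% lower. In ML-792 it fell by 0.68, 1.94 and 1.75 on days 1, 3 and 7 (adjusted p = 1.1e-03, 4.9e-08 and 1.0e-07, edgeR), and its day 1 call was lost without replicate A (adjusted p = 0.045), without replicate C (0.0281) and in a fit of all 24 libraries (0.016). At day 3 in ML-792, 17.2% of all entries were called higher and 17.6% lower.

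No difference between treatments passed for *Msn*, with log2 values of -0.34 on day 1 (standard error 0.21, adjusted p = 0.52), -0.20 on day 3 and -0.01 on day 7. Its interaction did not pass either (adjusted p = 0.95). *Rdx*, which encodes radixin, had the narrowest range of the 5 genes. Its total counts lay between 508 and 1070 in the 12 DMSO libraries and between 447 and 1003 in the 12 ML-792 libraries, and neither a time point nor a treatment contrast was called by edgeR with all libraries and no block by replicate letter. Its log2 differences between treatments ran from -0.21 to -0.13 with standard errors of 0.19 (interaction adjusted p = 0.999, edgeR), and without replicate B the day 7 difference of -0.47 was called (adjusted p = 0.064).

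At day −2, none of *Cav2*, *Msn* and *Rdx* differed between treatments by edgeR, DESeq2 or an unadjusted p under 0.05. The share of all entries called at that day was 0% in total and 0% in labelled reads, with 346 total and 77 labelled entries at an unadjusted p under 0.05. At days 1 and 7 none of these 3 genes was called in total reads by edgeR with its main settings, which use all libraries and no block by replicate letter. At day 1 only *Cav2* had an unadjusted p under 0.05, and DESeq2 called it. At day 7 no such p and no DESeq2 call was found, and the same held for the interaction.

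**Figure D3:**
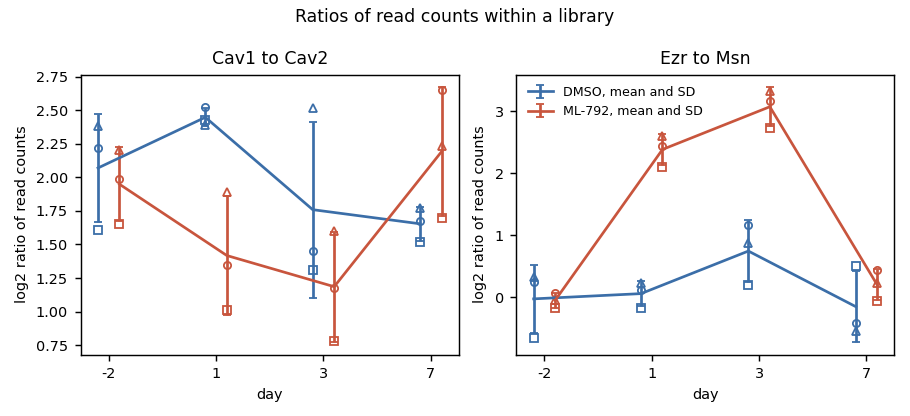
Log2 ratio of total reads of *Cav1* to *Cav2* and of *Ezr* to *Msn* in each library by day and treatment, with the mean and SD of 3 libraries and one marker shape per replicate letter. The *Ezr* to *Msn* ratio lies above 2.1 in all 6 ML-792 libraries of days 1 and 3 and below 1.2 in all 12 DMSO libraries.

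The 2 families were compared by the ratio of relatives within one library, which needs no scaling between libraries. In DMSO the log2 ratio of *Ezr* to *Msn* was -0.03 ± 0.54 on day −2, 0.05 ± 0.20 on day 1, 0.74 ± 0.50 on day 3 and -0.16 ± 0.57 on day 7 (SD, n = 3). With ML-792 it was -0.05 ± 0.12, 2.38 ± 0.26, 3.07 ± 0.31 and 0.20 ± 0.25 at the same days. *Ezr* and *Msn* reads were thus near parity on day −2, and in ML-792 libraries *Ezr* exceeded *Msn* 5.22-fold on day 1 and 8.41-fold on day 3. These read ratios also hold the difference in 3′UTR capture between the genes, which is shared by all libraries.

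The *Cav1* to *Cav2* ratio moved less. Its log2 value in DMSO was 2.07 ± 0.41, 2.45 ± 0.07, 1.76 ± 0.66 and 1.65 ± 0.13 on days −2, 1, 3 and 7 (SD, n = 3). With ML-792 it was 1.95 ± 0.27, 1.42 ± 0.44, 1.19 ± 0.41 and 2.19 ± 0.48. The ML-792 libraries of day 1 lay below all DMSO libraries of that day with a difference of -1.03, and at the other days the treatments overlapped. Neither ratio carries a test, since each holds a gene that was chosen on this contrast.

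Labelled reads were the values that chose *Cav1* and *Ezr*, and they are described here without a test. In the interaction between day and treatment, *Ezr* stood just inside the threshold of 0.1 with an adjusted p of 0.045, and *Cav1* further inside with 7.0e-04. *Cav2* was the next of the 5 genes outside it, at 0.70, followed by *Msn* at 0.89 and *Rdx* at 0.98. Only 0.236% of the 10589 entries tested in labelled reads passed this interaction, and none of *Cav2*, *Msn* and *Rdx* passed it with DESeq2 or had an unadjusted p under 0.05.

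**Figure D4:**
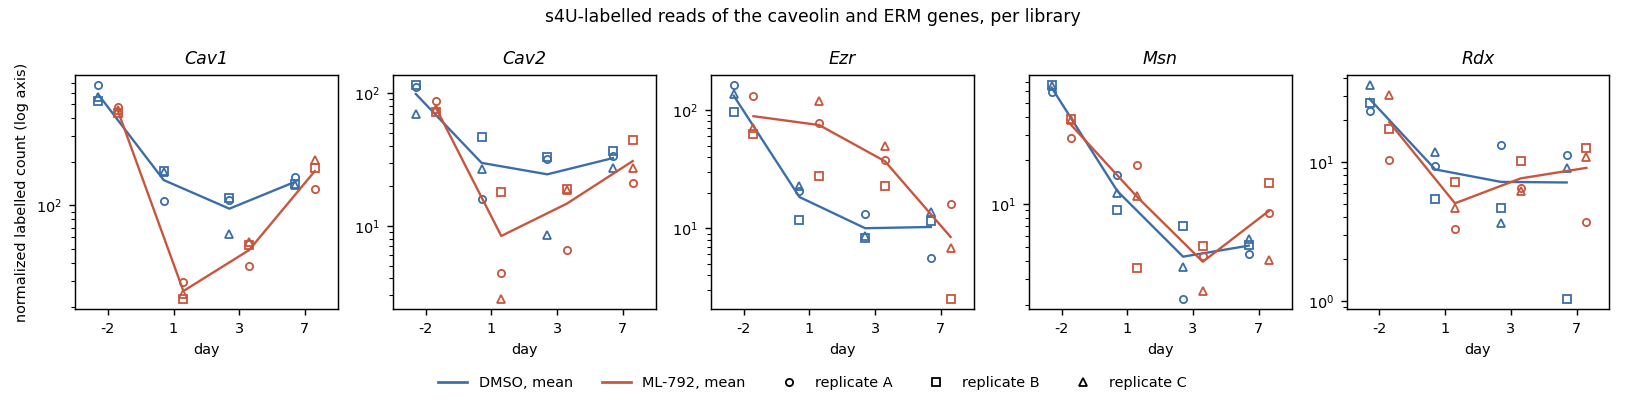
Normalized labelled read counts of the 5 genes in each library against day, on a log axis, with DMSO and ML-792 in separate colours and lines through the means of 3 libraries. All 5 genes have their highest DMSO mean on day −2, and *Ezr* in ML-792 stays at 74.5 on average on day 1, where DMSO has 18.3.

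In DMSO the normalized labelled counts of *Cav1* in replicates A, B and C were 674, 525 and 558 on day −2 and 108, 172 and 168 on day 1. They were 109, 112 and 63.2 on day 3 and 156, 141 and 139 on day 7. With ML-792 they were 474, 433 and 452 on day −2, 29.6, 22.7 and 24.4 on day 1, 38.1, 53.3 and 55.8 on day 3, and 130, 181 and 205 on day 7. The treatments did not overlap on days −2, 1 and 3, where ML-792 was lower, and they overlapped on day 7. The mean on day 1 was 5.84-fold lower with ML-792 (25.6 ± 3.6 against 149 ± 36.1; SD, n = 3).

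*Ezr* labelled counts in DMSO were 162, 96.0 and 138 on day −2 and 20.6, 11.7 and 22.7 on day 1. They were 13.2, 8.23 and 8.51 on day 3 and 5.62, 11.5 and 13.6 on day 7. With ML-792 they were 132, 63.2 and 70.4 on day −2, 76.9, 27.4 and 119 on day 1, 38.1, 22.8 and 49.6 on day 3, and 16.0, 2.54 and 6.79 on day 7. The ML-792 libraries lay above DMSO on days 1 and 3 and overlapped it on days −2 and 7. At day 7 the raw counts behind these values were 2 to 13 labelled reads per library, so that counting error alone is wide.

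*Cav2*, *Msn* and *Rdx* were tested in labelled reads. Against day −2 in DMSO, *Cav2* fell by 1.72, 2.01 and 1.60 on the log2 scale on days 1, 3 and 7 (adjusted p = 3.2e-03, 5.8e-04 and 4.2e-03, edgeR). *Msn*, from a mean of 63.5 ± 3.7 labelled counts on day −2 (SD, n = 3), fell by 2.37, 3.85 and 3.60 (adjusted p = 6.6e-04, 1.7e-06 and 3.5e-06, edgeR). The *Msn* values rested on few reads, with 2, 6 and 3 raw labelled reads in replicates A, B and C on day 3. At day 7 these libraries held 4, 5 and 5, so that counting error is wide. *Rdx* had log2 fold changes of -1.67, -1.95 and -1.99 that did not pass (adjusted p = 0.051, 0.020 and 0.018). The background was large, because labelled reads fell in the libraries as a whole. The median log2 fold change of all tested entries was -1.23, -1.65 and -1.51 at these days, with 17.9%, 30.8% and 27.7% of entries called lower and 0.586%, 1.87% and 1.75% called higher. Scaled by each library's own labelled reads, *Cav2* was called at none of the 3 days and *Msn* on days 3 and 7, while the entries called in either direction went from 1961, 3457 and 3114 of 10589 to 510, 1204 and 1157 of 7707. The day 1 calls of both genes, and the day 7 call of *Cav2*, were lost without replicate A (adjusted p from 0.015 to 0.14) and without replicate C (0.017 to 0.020), and the day 3 call of *Cav2* without replicate C (0.013).

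Between treatments, no labelled count of *Cav2*, *Msn* or *Rdx* was called at any day by edgeR with its main settings, which use all libraries and no block by replicate letter. *Cav2* came nearest on day 1, where its labelled counts were 15.9, 46.8 and 26.9 in DMSO and 4.39, 17.9 and 2.81 with ML-792 (log2 fold change -1.87, standard error 0.54, adjusted p = 0.106). These values came from only 3 to 15 labelled reads per ML-792 library. It was the only one of the 3 genes with an unadjusted p under 0.05 at any day, and DESeq2 called it on day 1. Over all entries, 0.822% were called on day 1, 0.935% on day 3 and 0.869% on day 7.

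**Figure D5:**
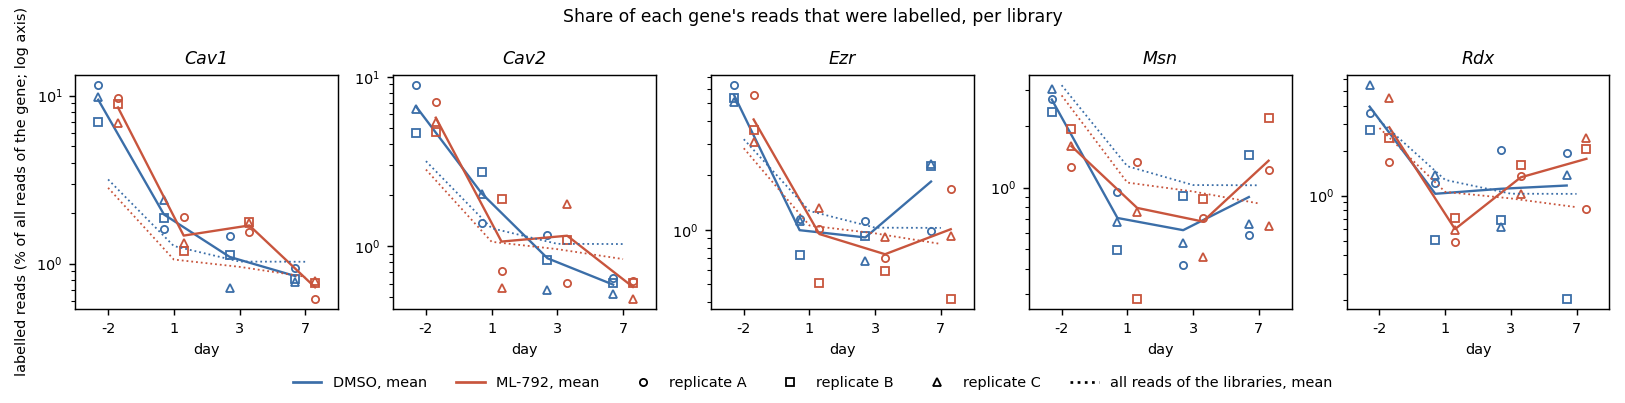
Labelled reads as a percentage of total reads for the 5 genes in each library against day, with the library-wide share as dotted lines. At day −2 the shares of *Cav1*, *Cav2* and *Ezr* in DMSO lie above the library-wide 3.17%, and on day 7 those of *Cav1* and *Cav2* lie below the library-wide 1.03%.

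The labelled share, the percentage of a gene's reads that carry a conversion, is high where RNA present was made recently. At day −2 in DMSO it was 9.45% ± 2.33 for *Cav1*, 6.67% ± 2.14 for *Cav2* and 5.59% ± 0.64 for *Ezr*, against 3.93% ± 1.39 for *Rdx* and 2.70% ± 0.34 for *Msn* (SD, n = 3). The share over whole libraries was 3.17%. By day 7 *Cav1* had 0.844% ± 0.084 and *Cav2* 0.591% ± 0.062, below the 1.03% of the libraries, while *Ezr* had 1.85% ± 0.75. The caveolin reads of day 7 thus combined the highest total counts of the course with the lowest labelled shares.

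With ML-792 the share of *Cav1* was 8.51% ± 1.44 on day −2, 1.47% ± 0.37 on day 1, 1.69% ± 0.12 on day 3 and 0.724% ± 0.091 on day 7. In DMSO it was 1.96% ± 0.40 on day 1 and 1.10% ± 0.37 on day 3. *Ezr* with ML-792 had 0.950% ± 0.41 on day 1 and 0.735% ± 0.16 on day 3, where DMSO had 0.997% ± 0.24 and 0.909% ± 0.23. Total and labelled *Ezr* reads were therefore higher with ML-792 by a like factor at these days, and the share overlapped between treatments. How much of such low shares comes from sequencing errors, which would follow total reads, was not tested.

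The other entries of these genes were also read. *Cav1* has a second entry inside the first (XM_006504974.1, chr6:17340098-17341328) that counts nearly the same reads, with a mean of 8491 against 8643. *Cav2* has an entry of a shorter transcript (NM_001277756.1, chr6:17282087-17282684) that holds no base of an exon of the main transcript and lies 4 bases after its exon 2, between exons 2 and 3. It had a mean of 106 total reads. Pooled over the libraries of day −2, its labelled share was 15.7% in DMSO (67 of 426 reads) and 15.7% with ML-792 (79 of 502). The main entry had 6.24% (351 of 5626) and 5.53% (322 of 5819). The libraries differed widely, as replicates A, B and C of the short entry had 25.0%, 3.45% and 23.1% in DMSO. With ML-792 they had 23.2%, 14.4% and 9.92%. In DMSO replicate B the short entry lay below the main entry (4.66%). In total reads this short entry passed the interaction (adjusted p = 0.077, edgeR), as did 9.65% of all entries. Its log2 fold changes of ML-792 over DMSO were -0.84 on day 1 and 0.71 on day 7 and did not pass on their own (adjusted p = 0.15 and 0.18, edgeR).

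Other genes of caveolae were read from a list of 16 genes (cavins, EHD proteins, pacsins, flotillins and further partners), of which 14 were tested in total reads. In DMSO on day 7, 4 were called higher and none lower, with a median log2 fold change of 0.24 against -0.04 over all entries, of which 15.9% were called higher and 16.9% lower. The cavins make the outer coat of caveolae, and *Cavin2* (listed as *Sdpr*) rose by 2.98 and *Cavin1* (*Ptrf*) by 1.66. *Ehd2*, an ATPase at the neck of caveolae, rose by 1.84 (adjusted p = 6.6e-07, edgeR). Earlier days in DMSO were mixed, with 2 called higher and 3 lower on day 1, and 3 and 3 on day 3. Of all entries, 5.94% were called higher and 7.81% lower on day 1, and 14.5% and 16.3% on day 3. *Cavin2* was lower on day 1 (-1.91) and higher on day 3 (1.81), where *Prkcdbp* was lower (-1.50). With ML-792 *Cavin2* was higher than in DMSO at all 3 days after induction, with log2 fold changes of 1.52, 2.48 and 1.58 (adjusted p = 9.8e-04, 8.3e-07 and 3.6e-04, edgeR). At day 1 it was the only list gene called, 1 of 14, beside 3.14% of all entries called higher and 3.31% lower. At day 3 *Ehd3* (1.19) and *Cavin3* (*Prkcdbp*, 0.84) were also called higher and *Pacsin3* (-0.89) and *Ehd1* (-0.62) lower, which gives 3 higher and 2 lower of 14 with a median of -0.28, beside 6.57% higher and 6.46% lower of all entries. *Cavin2* and *Cav1*, both coat genes, thus lay on opposite sides of DMSO on days 1 and 3.

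Partners of the ERM proteins (17 genes, 15 tested) include kinases, adaptors and membrane proteins that bind ezrin. In DMSO on day 7, 2 were called higher and 6 lower, with a median of -0.57, beside the same 15.9% and 16.9% of all entries. *Pdpn*, which encodes podoplanin, fell by 6.43, and *Cd44*, the hyaluronan receptor, fell by 3.40 (adjusted p = 1.4e-09, edgeR). *Slc9a3r2* fell by 2.30. *Nf2*, which encodes merlin, a relative of the ERM proteins, rose by 0.96. *Mtss1* rose by 3.78, from a mean of 1.68 normalized counts on day −2 to 24.7 on day 7. Between treatments 1 of 15 was called on day 1, 2 on day 3 and 3 on day 7. Of all entries, 3.14% were called higher and 3.31% lower on day 1, 6.57% and 6.46% on day 3, and 5.27% and 4.47% on day 7. The adaptor *Nherf2* (*Slc9a3r2*) was lower on day 1 (-1.03, adjusted p = 0.053, edgeR), *Pdpn* was higher (0.85) and *Cd44* lower (-0.55) on day 3, and on day 7 *Cd44* (0.95) and *Pdpn* (0.79) were higher and *Nherf1* (*Slc9a3r1*) lower (-0.77).

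Further genes of the membrane cortex (29 genes, all tested) were more often called lower than higher in DMSO, with 10 lower and 2 higher on day 1, 20 and 2 on day 3, and 19 and 3 on day 7, where the median was -1.05. Of all entries, 7.81% were called lower and 5.94% higher on day 1, 16.3% and 14.5% on day 3, and 16.9% and 15.9% on day 7. On day 7 *Tpm1*, a tropomyosin, fell by 3.81, *Anxa1*, an annexin, by 3.09 and *Actn1*, an actin crosslinker, by 2.81. The 3 genes called higher were *Epb41l1*, a band 4.1 relative (1.07), *Add3*, an adducin (0.70), and the non-muscle myosin *Myh10* (0.62). Between treatments 1 gene was called higher with ML-792 and 5 lower on day 1, 4 and 6 on day 3, and 2 and 3 on day 7. The shares of all entries called higher and lower were 3.14% and 3.31%, 6.57% and 6.46%, and 5.27% and 4.47%. *Flnc*, which encodes a filamin that crosslinks actin, was lower at all 3 days (-2.15, -1.97 and -1.13). *Epb41l1*, a band 4.1 relative (-2.11), and the non-muscle myosin *Myh10* (-1.77) were lower on day 3, and *Add3*, an adducin, was higher on days 1 and 3 (0.82 and 0.91).

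In labelled reads 11 caveola genes, 11 ERM partners and 29 cortex genes were tested at each day. They gave 2 calls between treatments, *Cavin2* on day 3 (1.75, adjusted p = 0.039, edgeR) and *Actb* on day 7 (-1.20, adjusted p = 0.026, edgeR). Of all entries, 0.822%, 0.935% and 0.869% were called on days 1, 3 and 7. In DMSO, 16, 24 and 22 of 29 cortex genes were called lower in labelled reads on days 1, 3 and 7 and none higher, beside 17.9%, 30.8% and 27.7% of all entries called lower. Their median on day 3 was -2.62 against -1.65 over all entries. Of the 11 caveola genes tested, 3, 3 and 1 were called lower at these days and 0, 1 and 1 higher, where 0.586%, 1.87% and 1.75% of all entries were called higher.

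The genes most like *Cav1* in total reads, by Pearson correlation of log2 counts over 24 libraries among 13331 genes, were *AI464131* (0.92), *Sqrdl* (0.92) and *Angptl1* (0.91), and *Cav2* had 0.90. *Ezr* was most like *Col27a1* (0.90), *Mrps6* (0.90) and *Ly6a* (0.89). In total reads the correlation between *Cav1* and *Ezr* was -0.96, while *Msn* and *Rdx* had 0.35 and 0.32 with *Ezr*. This held for total reads only, as in labelled reads *Cav1* and *Ezr* had 0.23, and *Msn* and *Rdx* had 0.68 and 0.40 with *Ezr*. In labelled reads, *Cav1* was most like *Cebpd* (0.95), *Cav2* (0.92) and *Irf1* (0.91), and *Ezr* was most like *Axl* (0.90), *Asap1* (0.89) and *Rasl11b* (0.89). The 24 points share 8 conditions and the same library scaling, so these values are descriptions with no p.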

How the data were processed

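3T3-L1 cells in DMSO or ML-792 were profiled by SLAMseq and QuantSeq from the same 24 libraries. The authors deposited raw counts of total reads and of labelled reads (at least 1 T to C conversion) per RefSeq 3′UTR entry, mapped and counted with SlamDunk on mm10 after base calling with bcl2fastq 2.17.1.14, with no normalization. Libraries were assigned by sample title, and 6 library columns that match no sample were left out. Each library held 13554718 to 27013352 total and 115709 to 820046 labelled reads, with 3 reads as the floor below which a library resolves nothing. No pair of replicates agreed within counting noise. The study's methods call the replicates biological without saying whether they are separate cultures, so p-values measure the spread between these libraries.

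The members and the gene lists were chosen with earlier results of these data known, and the thresholds are those of the study. Counts were analysed in R 4.3.3 with edgeR 4.0.16, limma 3.58.1 and the package data.table (1.17.8), and figures and motif searches were made in Python 3.11.15 with numpy 2.4.6, scipy 1.17.1 and matplotlib 3.10.9. TMM factors of the total counts scaled both total and labelled counts. Entries were kept by filterByExpr (minimum count 10, minimum total 15), which left 26563 entries of 13335 genes in total reads and 10589 entries of 6466 genes in labelled reads. All 5 members passed in both. Robust quasi-likelihood fits used the 12 libraries of a treatment for days against day −2 (adjusted p under 0.01) and all 24 libraries for ML-792 against DMSO within a day and for the interaction of day and treatment, an F-test (adjusted p under 0.1). Benjamini-Hochberg adjustment ran over all tested entries. To normalize, each count was divided by its library's effective size and multiplied by the mean of these sizes, with a prior count of 2 on the log2 scale. The fits were tested on simulated counts.

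All contrasts of *Cav1* and *Ezr* and the ratios that hold them are given without a test, although tests of their total reads had been planned, because the genes were chosen on the interaction that these contrasts make up.

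Genes were named by a rule. These are the members with their other tested entries, up to 3 called genes with the highest and 3 with the lowest log2 fold change per list and comparison, and the 3 genes most correlated with *Cav1* and with *Ezr*. For comparisons given mainly as counts, not all of the list genes that the rule covers are named. The alternatives were DESeq2 1.42.0, at least 10 reads or no filter, one entry or the longest entry per gene, unlabelled reads alone, labelled counts scaled by labelled reads, all 24 libraries or only the 6 of a day, the replicate letter as a block, and leaving out each letter.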

Additional observations from a re-analysis of the deposited data

Results flagged for a closer look

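*Cav1* in total reads differed from DMSO in opposite directions with day, with log2 fold changes of -2.11 on day 1, -1.60 on day 3 and 0.45 on day 7. In each case all 3 ML-792 libraries lay on one side of the DMSO libraries, and the difference between days was not tested because *Cav1* was chosen on this contrast. *Ezr* on day 3 lay below day −2 in every DMSO library (log2 fold change -1.09) and above it in every ML-792 library (1.20), and this difference was not tested for the same reason. The short *Cav2* entry NM_001277756.1 was flagged because its treatment effect differed between days in total reads (interaction adjusted p = 0.077, edgeR), as it did for 9.65% of all entries. This entry had a mean of 106 reads and was not examined under the alternatives.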

How the results depend on the processing

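Of the members' log2 fold changes under the alternatives, 784 kept their direction and side of the threshold (untested values, moved by less than the spread between replicates), 20 passed only under the alternative, 17 no longer passed, 12 untested values of *Cav1* or *Ezr* moved by more than that spread and 17 changed sign, and the cause was not tested. The sign changes touched only values that no fit called. Leaving out 1 letter gave total-read values from -0.38 to 0.090 for *Cav2* at day 1 in DMSO and from -0.31 to 0.033 for *Cav2* at day 3 in ML-792. Between treatments they ran from -0.45 to 0.18 (*Cav2*) and from -0.25 to 0.10 (*Msn*) at day −2, and from -0.23 to 0.20 (*Cav2*) and from -0.29 to 0.24 (*Msn*) at day 7. In labelled reads between treatments they ran from -0.44 to 0.10 for *Msn* at day 1, from -0.497 to 0.25 for *Msn* and -0.42 to 0.95 for *Rdx* at day 3, and from -0.35 to 0.17 for *Cav2* and -0.496 to 1.22 for *Rdx* at day 7. Scaling by labelled reads gave 0.068 for *Msn* at day 1 and 0.20 for *Cav2* at day 7.

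Numbers called among *Cav2*, *Msn* and *Rdx* also moved. Without 1 letter they ran from 1 to 2 at day 3 (1 with all libraries) and day 7 (2) in DMSO and from 0 to 2 at day 1 in ML-792 (1). With no filter 2 were called at day 3 in DMSO and at day 1 in ML-792, where DESeq2 called 2 and the fit of all 24 libraries 0. Between treatments they ran from 0 to 1 at day 1 (0), day 3 (1) and day 7 (0) and for the interaction (0). In labelled reads in DMSO they ran from 0 to 2 at day 1 and from 1 to 2 at days 3 and 7 (2 each), and scaling by labelled reads gave 0, 1 and 1. At day 1 between treatments, 1 member in place of 0, *Cav2*, was called in total reads by DESeq2, with no filter or with only the 6 libraries of the day. In labelled reads it was called at day 1 by DESeq2, with at least 10 reads, with one entry per gene or without replicate B (0 to 1 without a letter). With no filter on low counts 1 member, *Cav2*, also passed the interaction in total reads. Over all entries the calls moved as well. At day 1 in ML-792, 5316 became 1610, 6290 and 1963 without A, B and C. DESeq2 called 7069 there and the fit of all 24 libraries 5417. At day 7 in DMSO, 8696 became 4507, 9205 and 5614 without A, B and C. Between treatments at day 1, 1714 became 463, 2134 and 694, and DESeq2 called 2304. In labelled reads at day 1 in DMSO, 1961 became 429, 2150 and 920.

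Replicate letters were not taken to pair the libraries. Residuals of libraries with the same letter correlated by 0.19 on average in total reads (range -0.17 to 0.52, over 0.1 in 68 of 84 pairs). Those with different letters averaged -0.094 (over 0.1 in 20 of 168 pairs), and 22 of 24 libraries correlated best with their own letter. The letters thus shared some variation, which the tests without a block leave in the spread. With the letter as a replicate block, 2 members in place of 1 were called at day 3 in DMSO (*Cav2*, adjusted p = 0.00475, edgeR) and at day 1 in ML-792 (*Cav2*, 7.3e-04), *Rdx* was called at day 7 in ML-792 (log2 fold change -0.41, adjusted p = 0.0035) and in labelled reads at day 7 in DMSO (-2.18, adjusted p = 0.0090), *Cav2* was the 1 member called at day 1 between treatments in total (0.0017) and in labelled reads (0.020) and the 1 member that passed the interaction in total reads (adjusted p = 0.015, edgeR), and *Msn* at day 7 had a log2 difference of 0.00147. Over all entries the interaction in total reads called 2563, against 5484 with the block, 448 without replicate A and 645 without replicate C. In labelled reads it called 25, against 152 by DESeq2, 108 with the block, 48 with at least 10 reads, 39 with no filter, 7 without replicate A and 8 without replicate C. Depth limits the labelled reads of *Ezr*, *Msn* and *Rdx*.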

Other observations

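Replicate letters stood in a steady order for some members. The B library held the lowest *Ezr* total count in 8 of 8 conditions and the highest *Cav2* total count in 8 of 8. *Rdx* was highest in B in 7 of 8 conditions, and *Cav1* was lowest in A in 7 of 8. What the letters stand for is not given in the sources used here.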
